A study of Mus musculus with 6 samples.

Results

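Pcm1 and 9 further genes of the centrosome and of centriolar satellites (Pcnt, Akap6, Akap9, Cdk5rap2, Cep131, Cep290, Ofd1, Bbs4 and Ninl) were examined for open chromatin in nuclei of the newborn mouse heart. The 10 genes were chosen by name, out of 21938 protein-coding genes on chromosomes 1 to 19, X and Y of the GENCODE M21 annotation. All peaks of the 6 deposited peak lists that overlap a gene or the 10 kb to either side of it, called its window here, were taken. All positions are on the mm10 build.

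The study developed a way to isolate nuclei of chosen cell types from fibrous organs and tested the isolated nuclei by Omni-ATAC-Seq, a method that inserts sequencing adapters into accessible DNA. Each of the 6 libraries was made from 50000 nuclei of whole hearts at postnatal day 1 that had passed a 2.2 M sucrose cushion. The libraries form 3 groups of 2 independent biological replicates. Input nuclei came from wildtype hearts and had no immunoprecipitation. Myc nuclei came from Nkx2-5 Cre/+; R26RSun1-Myc-Egfp/+ hearts, in which Cre recombinase switches on a tagged nuclear membrane protein, and were pulled down with a Myc antibody. PCM1 nuclei came from wildtype hearts and were pulled down with a PCM1 antibody. Each group is limited as a model of the cardiomyocyte. The 2.2 M cushion is the density the study used for cardiomyocyte nuclei, so Input is not a sample of all heart nuclei. Nkx2-5 Cre also marks smooth muscle and endothelial cells. The study chose this cushion partly to keep peaks of such cells out of the Myc maps. It reported that antibodies to Myc and to the cardiomyocyte protein phospholamban stained all nuclei isolated over it. With a short incubation, the PCM1 antibody stained only a subset of cardiomyocyte nuclei, while overnight incubation was reported to label them efficiently. For Myc against Input, genotype and pulldown cannot be told apart, and for PCM1 against Myc, antibody and genotype cannot be told apart.

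PCM1 is the scaffold of centriolar satellites, granules that move along microtubules and bring proteins to the centrosome and the cilium. When heart and skeletal muscle cells differentiate, PCM1 and several centrosome proteins move to the surface of the nucleus, which then takes over from the centrosome as the site where microtubules grow, and an antibody to PCM1 can therefore pull down cardiomyocyte nuclei. On the nucleus AKAP6, held by the nesprin-1α form of SYNE1, brings in pericentrin (the product of Pcnt) and AKAP9.

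Replicates 1 and 2 had 131500 and 75336 peaks for Input, 107216 and 108513 for Myc and 83139 and 81487 for PCM1. Values are given in the order replicate 1, replicate 2 from here on. Read totals are not in the lists, so depth was read from the background pileup. This is the most frequent local background, in tags that cover a base, among the peaks of a library. It was 3.96 and 1.02 for Input, 1.44 and 1.44 for Myc and 0.977 and 0.903 for PCM1. Input replicate 1 was thus 4.38 times as deep as PCM1 replicate 2, and a site without a peak is one where none was detectable at that library's depth. To compare libraries of unequal depth, the 75336 peaks with the highest −log10 q-value of each library were ranked, and a site's level is the rank percentile of its strongest peak. A level of 100 is the strongest peak of a library, and 0 means no peak or one below the ranked set. The promoter level of a gene is the level of its strongest peak within 1 kb of any annotated transcription start site (TSS). Levels come from nuclei in bulk, in which fewer cells of a type and less accessibility per cell cannot be told apart.

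Cardiomyocyte genes were open in all libraries. All 10 cardiomyocyte markers had a promoter peak in all 6 libraries, with a median level of 93.8 and 94.8 for Input, 86.0 and 89.2 for Myc and 92.8 and 95.7 for PCM1. Summed over the 10 genes, the levels came to 912 and 912 for Input, 830 and 873 for Myc and 906 and 908 for PCM1, and Myh6 (the alpha heavy chain of cardiac myosin) had the highest median level at 98.4. The Myc libraries were therefore the lowest for this list, with 6 markers below both Input and both PCM1 libraries. None of the 10 immune markers had a promoter peak in all 6 libraries, and Ptprc, Cd68, Csf1r, Fcgr1, Cx3cr1 and Cd52 had none in any library. The immune levels summed to 46 and 50.2 for Input, 0 and 0 for Myc and 20.2 and 0 for PCM1, with Spi1 the highest at 10.1. Promoters of markers of other heart cells were open in every group, which does not show that those cells were present. The 10 endothelial markers summed to 568 and 517 for Input, 651 and 692 for Myc and 563 and 608 for PCM1, with a promoter peak in all 6 libraries for all 10 and the highest median level for Tie1, at 89.6. The 10 smooth muscle and pericyte markers, all with a promoter peak in all 6 libraries and led by Mylk at 92.3, summed to 661 and 649 for Input, 560 and 603 for Myc and 604 and 551 for PCM1. Of the 10 fibroblast markers, 7 had a promoter peak in all 6 libraries, Pdgfra was the highest at 82.4, and the sums were 506 and 490 for Input, 501 and 546 for Myc and 455 and 413 for PCM1. Of the 10 epicardial markers, 6 had one in all 6 libraries, Tbx18 was the highest at 84.4, and the sums were 413 and 350 for Input, 305 and 356 for Myc and 348 and 279 for PCM1. Lum and Dpt among the fibroblast markers and Upk1b, Msln and Muc16 among the epicardial markers had a median level of 0. The Myc nuclei thus had the highest endothelial and the lowest cardiomyocyte sums. The part of these differences in the levels of the centrosome and satellite genes was not tested.

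The start of 9 of the 10 genes was open in every library, and Akap6 was the exception. A promoter peak was present in all 6 libraries at 9 members, against 61.1% of the 21938 protein-coding genes, and in none of the libraries at Akap6, as at 27.3% of all genes. The members' median promoter level was 93.7 and 93.5 for Input, 96.1 and 94.8 for Myc and 94.9 and 93.5 for PCM1. Over all genes the median was 71.2 and 68.6 for Input, 74.1 and 73.3 for Myc and 65.0 and 64.4 for PCM1. These medians count genes without a promoter peak as 0. Over genes with a promoter peak in a library's ranked set, the median was 88.0 and 87.6 for Input, 90.2 and 90.0 for Myc and 86.4 and 86.3 for PCM1. Ordered by the median over the 6 libraries, the members ran from Cep131 (99.2), Cep290 (99.2), Pcnt (97.9), Pcm1 (96.5), Cdk5rap2 (95.8) and Bbs4 (92.9) to Ofd1 (85.4), Ninl (84.7), Akap9 (79.7) and Akap6 (0). The ranges over libraries of neighbours in this order overlapped, apart from those of Bbs4, which reached no lower than 91.2, and Ofd1, which reached no higher than 89.1, and of Akap9 and Akap6.

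**Figure D1:**
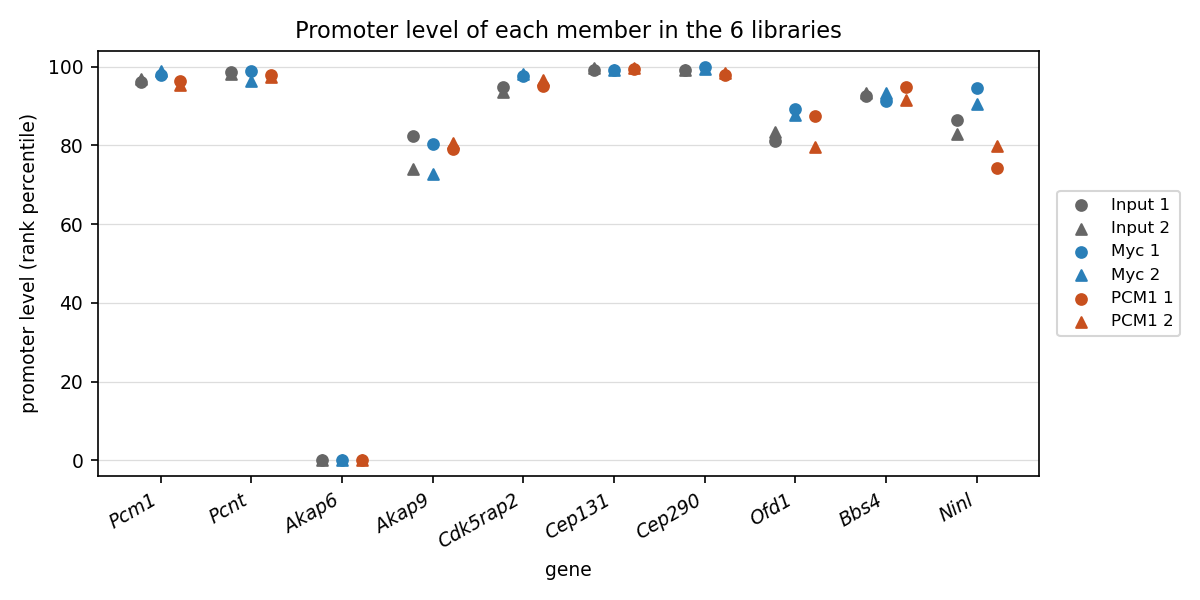
Promoter level (rank percentile from 0 to 100, vertical axis) of the 10 genes in each of the 6 libraries, with circles for replicate 1 and triangles for replicate 2, Input in grey, Myc in blue and PCM1 in orange. Cep131 lies between 99.1 and 99.7 in all libraries, Ninl is highest in Myc (94.6 and 90.5) and lowest in PCM1 (74.3 and 79.8), and Akap6 is at 0 in all libraries.

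Pcm1 (ENSMUSG00000031592.10) lies on the plus strand of chromosome 8, from 41239752 to 41332344. Its 4 annotated starts lie within a single open region, from 41239279 to 41240460, that covers the start of the gene and part of an exon. The promoter level of Pcm1 was 96.1 and 96.8 for Input, 97.9 and 98.8 for Myc and 96.2 and 95.4 for PCM1. Both Myc libraries were above the other 4, while the ranges of Input and PCM1 overlapped. Fold enrichment is the authors' ratio of tags at the summit to the local background, with a small constant added to both. The constant lowers the ratio most where the background is low, as in shallow libraries, so fold enrichment also depends on depth. At the same peak it was 15.9 and 16.3 for Input, 17.2 and 18.5 for Myc and 15.2 and 15.8 for PCM1. The −log10 q-value of the peak was 491 and 149 for Input, 231 and 273 for Myc and 114 and 102 for PCM1, and this value grows with depth. Divided by the background pileup, the summit pileup was 154 and 174 for Input, 189 and 217 for Myc and 143 and 135 for PCM1. On the scales of fold enrichment and of pileup over background, Myc was again the highest and PCM1 the lowest. The summit lay at −284 to −208 bp from the start of the gene, upstream of it, in all libraries.

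Nuclei pulled down by the PCM1 protein were compared with nuclei that had no pulldown at the gene that encodes it. PCM1 minus Input was −0.647 percentile points (exact permutation test over libraries, two-sided, p = 0.667), less than the range between the replicates of either group, 0.719 in Input and 0.848 in PCM1. Myc minus Input was 1.90 points (exact permutation test, two-sided, p = 0.333), and PCM1 minus Myc was −2.55 points (exact permutation test, two-sided, p = 0.333). Both differences with Myc were larger than the range between replicates in either group, which was 0.879 in Myc. With 2 libraries against 2, the exact test cannot give a p below 0.333, so none of these differences could pass 0.05. When peaks were ranked by fold enrichment, PCM1 minus Input changed sign to 4.34 points (exact permutation test, two-sided, p = 0.333), so no direction is given for that pair. With that ranking Myc was above PCM1 at 2 members (Ofd1 and Ninl), against 32.1% of genes with a promoter peak in the ranked set. The Myc and PCM1 libraries then overlapped at Pcm1, Cdk5rap2 and Cep290.

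The remaining regions of the Pcm1 window were few. An intronic region at 41250648 to 41251278, 10870 bp from the nearest start, was called in all 6 libraries at a level of 71.2 and 81.4 for Input, 58.0 and 71.9 for Myc and 77.9 and 84.9 for PCM1. Here the PCM1 libraries were above the Myc libraries, the reverse of the order at the promoter, and Input overlapped both. By fold enrichment, this region had 14.7 and 14.6 for Input, 10 and 12.8 for Myc and 12.3 and 14.7 for PCM1, so that PCM1 and Myc overlapped on that scale. A weaker intronic region at 41301318 to 41301612 was called in Input replicate 1, both Myc libraries and PCM1 replicate 2, and its level was 20.1 and 23.6 in Myc and 30.6 in PCM1 replicate 2, with 0 in Input replicate 1 because that peak fell below the ranked set. The other 4 regions were each called in a single library. They start at 41234025 in Myc replicate 1, at 41245250 in Myc replicate 2, and at 41302386 and 41336610 in PCM1 replicate 1.

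The protein-coding genes on other chromosomes with promoter levels nearest to those of Pcm1, by the largest difference over the 6 libraries, were Ppp4r3b on chromosome 11 (largest difference 0.616 points) and Foxa3 and Sympk on chromosome 7 (0.707 points each). Foxa3 and Sympk share a promoter region and so have the same values. As many as 3497 such genes stayed within 5 points of Pcm1 in every library, so a profile like that of Pcm1 was common.

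Among the satellite and cilium genes, Cep131 and Cep290 had promoters near the top of every library. Cep131 (ENSMUSG00000039781.14, chromosome 11, 120064430 to 120086827, minus strand) encodes a satellite protein that binds PCM1. Its promoter region at 120086282 to 120087177 had a level of 99.2 and 99.5 for Input, 99.2 and 99.1 for Myc and 99.3 and 99.7 for PCM1. PCM1 was above Myc by 0.289 points, in a span of less than a point over all libraries. Fold enrichment at the Cep131 promoter ran the other way, with 23.6 and 24.1 for Myc against 20.1 and 22.9 for PCM1, and with all peaks of each library ranked no member had PCM1 above Myc. When peaks were ranked by fold enrichment within each library, Myc and PCM1 overlapped at Cep131. Near the 3′ end of Cep131, an exonic region at 120065264 to 120066295, within 1 kb of the start of a noncoding transcript, had a level of 47.4 and 63.7 for Input, 58.7 and 38.3 for Myc and 74.0 and 65.2 for PCM1. There the PCM1 libraries were the highest, by a margin over Input replicate 2 that was smaller than the range within any group. Fold enrichment at this region overlapped between all groups, with 7.40 and 8.59 for Input, 8.65 and 7.14 for Myc and 9.45 and 7.62 for PCM1.

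Cep290 (ENSMUSG00000019971.10, chromosome 10, 100487558 to 100574840, plus strand) encodes a protein of the ciliary transition zone that is also found on satellites. The only peak of its window in each library was the one at its start, in a region from 100486992 to 100487903 that also lies within 1 kb of a start of Tmtc3. The Cep290 promoter level was 99.2 and 99.2 for Input, 99.9 and 99.3 for Myc and 97.9 and 98.3 for PCM1. The groups followed each other without overlap, from Myc through Input to PCM1. With all peaks of each library ranked, Myc and Input overlapped at Cep290, and fold enrichment put Input above Myc, with 24.6 and 24.2 for Input, 24 and 23.0 for Myc and 21.1 and 21.6 for PCM1. When peaks were ranked by fold enrichment within each library, Input overlapped Myc at Cep290 and was above PCM1.

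Ofd1 (ENSMUSG00000040586.8, chromosome X, 166390033 to 166440704, minus strand) encodes a protein of the distal centriole and of satellites. Its promoter region, 166440261 to 166441124, is shared with Trappc2 and had a level of 81.1 and 83.3 for Input, 89.1 and 87.8 for Myc and 87.5 and 79.6 for PCM1. Myc was above the other groups, and the PCM1 replicates lay 7.87 points apart, on both sides of Input. The other region of the Ofd1 window, at 166384900 to 166385441 in the flank beyond the 3′ end, was called in all 6 libraries at 51.8 and 44.3 for Input, 21.4 and 54.9 for Myc and 54.7 and 39.2 for PCM1, with all groups overlapping.

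Bbs4 (ENSMUSG00000025235.8, chromosome 9, 59321990 to 59353508, minus strand) encodes a subunit of the BBSome, a coat that carries membrane proteins into and out of cilia, and the BBS4 protein also sits on satellites. The promoter region at 59353021 to 59353676 had a level of 92.5 and 93.4 for Input, 91.2 and 93.2 for Myc and 94.7 and 91.6 for PCM1. All groups overlapped at Bbs4. A weak exonic region at 59324499 to 59324826 was called in both Myc libraries and in no other, and was below the ranked set in both.

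Pcnt and Cdk5rap2 encode proteins of the pericentriolar matrix, the material from which the microtubules of a centrosome grow. Pcnt (ENSMUSG00000001151.10, chromosome 10, 76351263 to 76442786, minus strand) had a promoter level of 98.6 and 98.1 for Input, 98.9 and 96.3 for Myc and 97.8 and 97.3 for PCM1, in a region from 76442171 to 76443293. Input was above PCM1 at Pcnt, and the Myc replicates spread over the range of both. When peaks were ranked by fold enrichment, Input and PCM1 were instead both above Myc at Pcnt, and Input was not above PCM1. An inner start of a noncoding Pcnt transcript lies in a region at 76416661 to 76417523, with a level of 89.3 and 87.1 for Input, 81.3 and 79.9 for Myc and 89.0 and 85.4 for PCM1. The Myc libraries were below the other 4 at this inner start by level. Fold enrichment there was 20.3 and 15.9 for Input, 15 and 14.6 for Myc and 15.4 and 14.2 for PCM1, on which scale Myc and PCM1 overlapped. The window of Pcnt also takes in the promoter of the neighbour Dip2a, at 76344728 to 76345828, with levels between 94.7 and 96.9.

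Cdk5rap2 (ENSMUSG00000039298.16, chromosome 4, 70216856 to 70410443, minus strand), whose product activates the gamma-tubulin complexes that seed microtubules, had a promoter level of 94.8 and 93.6 for Input, 97.6 and 98.1 for Myc and 95.1 and 96.5 for PCM1, in a region from 70410046 to 70410825. The 3 groups did not overlap, and the order ran from Myc through PCM1 to Input. With all peaks of each library ranked, PCM1 and Input overlapped, as they did in fold enrichment, which was 22.2 and 18.9 for Input, 22.8 and 24.4 for Myc and 21.5 and 22.5 for PCM1. When peaks were ranked by fold enrichment within each library, PCM1 was above Input at Cdk5rap2, and Myc and PCM1 overlapped. The strongest Cdk5rap2 region away from any start and called in all 6 libraries, at 70220280 to 70220915 over an exon, had a level of 61.0 and 73.8 for Input, 73.9 and 63.6 for Myc and 64.3 and 65.7 for PCM1, with all groups overlapping.

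Akap9 (ENSMUSG00000040407.17, chromosome 5, 3928054 to 4081310, plus strand) encodes a large scaffold that holds kinases and gamma-tubulin at the centrosome and the Golgi. The 14 annotated starts of Akap9 made its promoter level a mixture of separate regions. It was 82.5 and 73.9 for Input, 80.3 and 72.7 for Myc and 79.1 and 80.6 for PCM1, with all groups overlapping. At the region that holds the start of the gene, 3927763 to 3929014, the level was 70.4 and 73.9 for Input, 80.3 and 72.7 for Myc and 49.8 and 60.9 for PCM1. Near the other end, the region at 4066914 to 4067733 holds the start of a transcript annotated as a retained intron, and its level was 82.5 and 67.8 for Input, 68.1 and 68.7 for Myc and 79.1 and 80.6 for PCM1. The PCM1 libraries were thus the lowest at the start of Akap9, and above Myc at the inner start. Fold enrichment at the start of the gene was 10.9 and 9.85 for Input, 13.0 and 10.4 for Myc and 6.80 and 7.58 for PCM1, the same order of PCM1 below the rest. Fold enrichment at the inner start was 14.1 and 8.29 for Input, 10.1 and 10.6 for Myc and 9.72 and 10.8 for PCM1, and there PCM1 and Myc overlapped. In PCM1 replicate 1 the start region was called as 2 peaks, of which the stronger gave the level.

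The strongest Akap9 region away from any start and called in all 6 libraries lies in an intron at 4071526 to 4071975, 4053 bp from the inner start. Its level was 64.6 and 68.6 for Input, 53.5 and 51.3 for Myc and 75.5 and 75.0 for PCM1, so that all 3 groups stood apart with PCM1 the highest and Myc the lowest. Fold enrichment at this region was 8.39 and 8.58 for Input, 7.71 and 8.0 for Myc and 8.76 and 9.36 for PCM1, in the same order. With all peaks of each library ranked, none of the 37 member regions called in all 6 libraries had PCM1 above Input, so the step from Input to PCM1 was lost there. A further intronic region at 4023855 to 4024687, chosen after its values were seen, had a level of 33.9 and 35.7 for Input, 44.4 and 23.0 for Myc and 64.2 and 50.7 for PCM1. PCM1 had the highest levels here too, but fold enrichment overlapped between the groups, with 6.70 and 5.70 for Input, 6.75 and 5.83 for Myc and 8.44 and 6.28 for PCM1. Depth is also lowest in the PCM1 libraries, and its part in the levels at Akap9 was not tested.

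**Figure D2:**
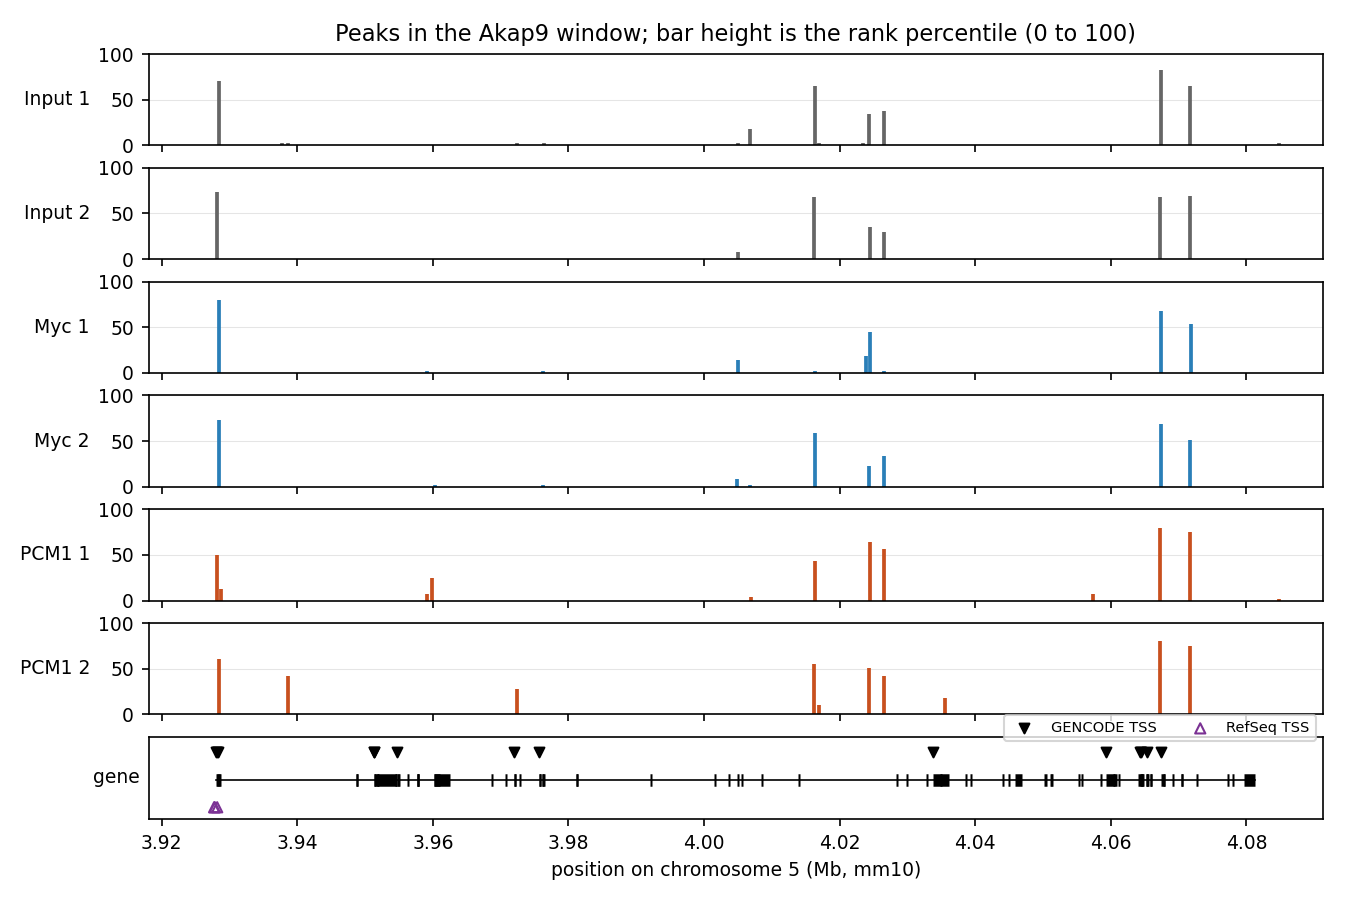
Peaks in the Akap9 window on chromosome 5 (horizontal axis, position in Mb) in each of the 6 libraries, with bar height giving the rank percentile (0 to 100) and the bottom track giving exons as boxes and annotated starts as triangles. The bar at the start of the gene is lowest in PCM1 (49.8 and 60.9), and the bar near 4071526 is highest in PCM1 (75.5 and 75.0) and lowest in Myc (53.5 and 51.3).

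Akap6 (ENSMUSG00000061603.8, chromosome 12, 52699383 to 53155599, plus strand), which encodes the scaffold that anchors centrosome proteins at the nuclear surface of muscle cells, had many open regions but none at an annotated start. No peak lay within 1 kb of either GENCODE start, at 52699383 and 52795836, in any of the 6 libraries, so a promoter there was not detectable at these depths. The gene is 456 kb long, and only 277 protein-coding genes are as long or longer. Between 20 and 32 peaks per library lay inside it. Of the 5984 protein-coding genes with no promoter peak in any library, 576 had a peak inside the gene in all 6, and 5 had at least as many as Akap6 in every library. Over all protein-coding genes, 124 had as many peaks in every library as Akap6 or more.

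The peaks of the Akap6 window merged into 51 regions, 49 of them in introns and 2 in the flanks. Of these, 13 were called in all 6 libraries and 18 in a single library. Of the 13, PCM1 was above Myc at 7 and Myc above PCM1 at 3, against 32.8% and 27.1% of the regions of the genome called in all 6 libraries, and these counts depend on the ranking, as given below for all members. The strongest by median level lies in an intron at 52876940 to 52877719, 81104 bp from the nearest annotated start, with a level of 92.9 and 94.1 for Input, 88.2 and 91.4 for Myc and 95.0 and 94.7 for PCM1. The PCM1 libraries were the highest and the Myc libraries the lowest, by a few points. By fold enrichment, Input stood above PCM1 at this region, with 15.8 and 15.3 for Input, 11.7 and 12.7 for Myc and 14.6 and 14.7 for PCM1, and Myc was again the lowest.

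A strong region at 52790262 to 52790889 had a level of 87.5 and 82.8 for Input, 85.5 and 86.3 for Myc and 95.6 and 88.1 for PCM1. It lies in an intron in GENCODE, but it holds a start of 2 predicted RefSeq transcripts of Akap6 at 52790679, 5157 bp from the nearest GENCODE start. The curated RefSeq start of Akap6 is the GENCODE start at 52699383, where no library had a peak. Counted with RefSeq starts, predicted ones included (an alternative chosen after seeing the data), all 10 genes had a promoter peak in all 6 libraries. Both PCM1 libraries were above the other 4 at this region by level, but not by fold enrichment, which was 20.8 and 14.8 for Input, 17.9 and 17.2 for Myc and 21.8 and 16.6 for PCM1.

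Of the remaining Akap6 regions, 6 are named here, the 2 called in both Myc libraries alone and 4 picked from the 51 after their values were seen. A region at 52854213 to 52854847 was about as strong in all libraries, with 87.3 and 85.5 for Input, 89.7 and 84.9 for Myc and 88.2 and 87.2 for PCM1. In an intronic region from 53032681 to 53033217 the level was 61.8 and 57.7 for Input, 14.5 and 50 for Myc and 73.5 and 78.0 for PCM1, which separated all 3 groups, with PCM1 the highest. Fold enrichment there was 9.55 and 7.18 for Input, 5.19 and 7.95 for Myc and 10.1 and 11.9 for PCM1, and PCM1 was the highest on that scale as well, but not above Input with all peaks of each library ranked. At 52895598 to 52896043 the Myc libraries were the highest, at 73.8 and 80.3, against 63.2 and 50.6 in Input and 65.8 and 63.0 in PCM1. A region at 52879287 to 52879742 had a level of 67.5 and 54.1 for Input, 66.4 and 66.1 for Myc and 0 and 15.7 for PCM1, and no peak was detectable there in PCM1 replicate 1. By level, the picked regions of Akap6 thus went in both directions. Weak regions at 52910866 to 52911164 and 52918979 to 52919246 were called in both Myc libraries and no other.

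**Figure D3:**
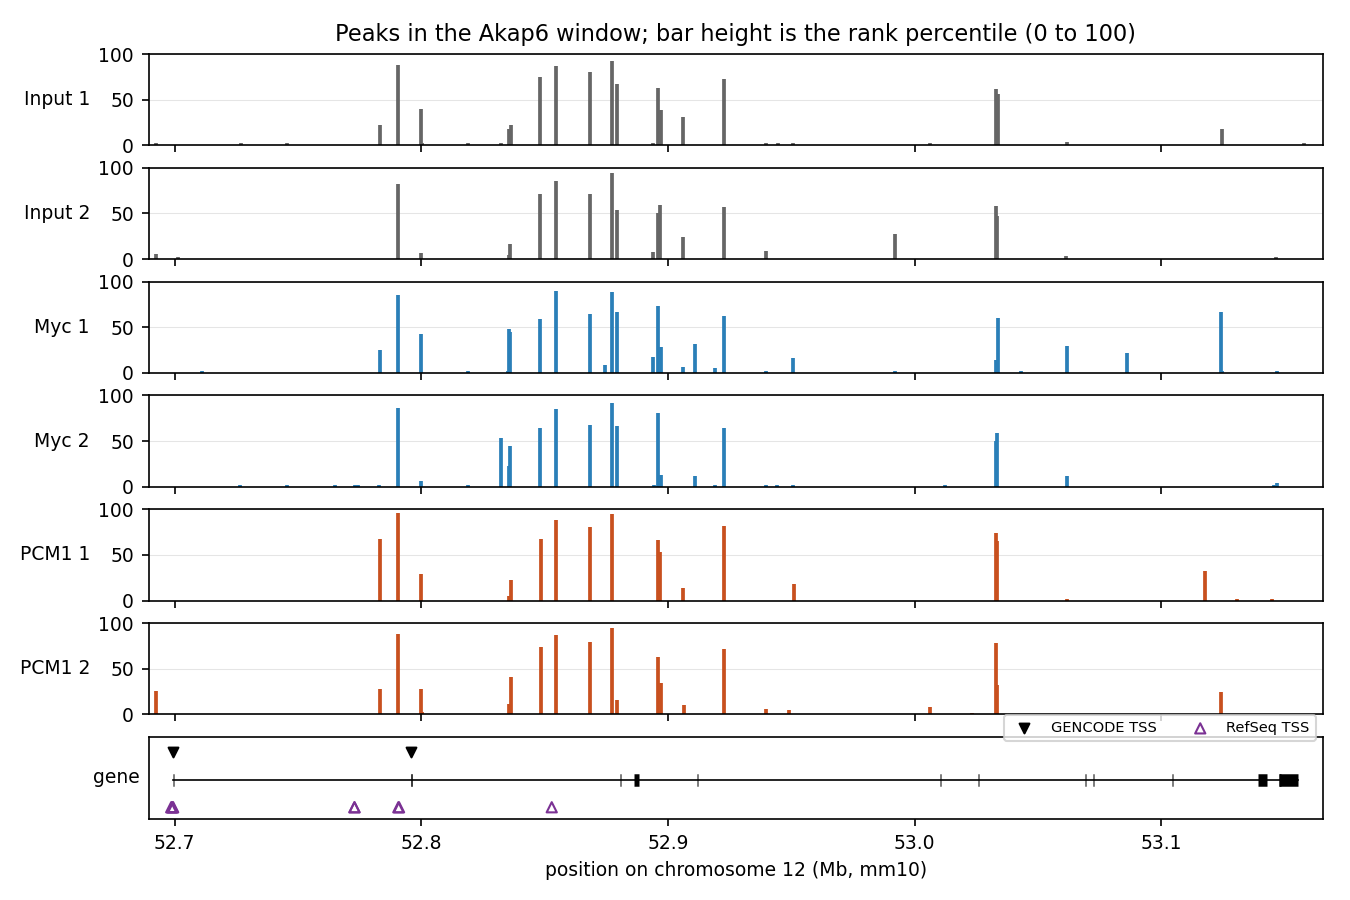
Peaks in the Akap6 window on chromosome 12 (horizontal axis, position in Mb) in each of the 6 libraries, with bar height giving the rank percentile (0 to 100) and the bottom track giving exons as boxes, GENCODE starts as filled triangles and RefSeq starts as open triangles. Neither GENCODE start carries a bar, and the 3 tallest bars of every library lie at 52790262 (82.8 to 95.6), 52854213 (84.9 to 89.7) and 52876940 (88.2 to 95.0).

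Ninl (ENSMUSG00000068115.13, chromosome 2, 150934519 to 151039382, minus strand) encodes a ninein-like protein that binds gamma-tubulin and anchors microtubules at the centrosome. Its promoter level was 86.5 and 82.9 for Input, 94.6 and 90.5 for Myc and 74.3 and 79.8 for PCM1. All 3 groups stood apart, and PCM1 minus Myc was −15.5 points. Fold enrichment was 18.6 and 13.6 for Input, 22.7 and 18.4 for Myc and 10.8 and 13.0 for PCM1, so that PCM1 was again the lowest, while Input and Myc overlapped. The peaks behind these values lie in a region at 151038695 to 151039787 that Ninl shares with the start of Nanp. At the curated RefSeq start of Ninl, 151009398, the region from 151008720 to 151009711 had a level of 69.1 and 77.3 for Input, 78.3 and 63.6 for Myc and 74.2 and 67.4 for PCM1, and there all groups overlapped. The separation of the groups was thus found at the shared upstream start and not at the inner one.

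Counted over the members, the promoters followed what the genome did between these libraries. PCM1 was above Input at 1 of the 9 members with a promoter peak (Cdk5rap2), against 17.8% of 15018 genes. For each pair of groups, the genes counted were those with a promoter peak in the ranked set of any library compared, called ranked genes. Input was above PCM1 at 3 (Pcnt, Cep290 and Ninl), against 36.0%. Myc was above Input at 5 of the 9 (Pcm1, Cdk5rap2, Cep290, Ofd1 and Ninl), against 40.9% of 15003 ranked genes. Input was above Myc at 0, against 18.5%. Myc was above PCM1 at 5, with the same names as for Myc above Input, against 47.9% of 15025 ranked genes. PCM1 was above Myc at 1 (Cep131), against 17.1%. These comparisons share libraries, and the higher levels in Myc were a property of promoters at large, so the counts are not a result about these genes. With only the starts of protein-coding transcripts counted, an alternative chosen after seeing the data, Akap9 joined the genes lower in PCM1. This made 4 members with Input above PCM1 (36.4% of ranked genes) and 6 with Myc above PCM1 (48.6%). Leaving out PCM1 replicate 1 brought the members with Input above PCM1 to 6 and the share of ranked genes to 49.2%.

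Over all windows, the peaks merged into 138 regions, of which 98 lay in introns, 26 over exons and 14 in the flanks. A start of the member lay within 1 kb of 18 of them and only a start of another gene within 1 kb of 3. Of the 138 regions, 37 were called in all 6 libraries, against 28.8% of 169881 regions in the genome, and 50 in a single library, against 30.4%. As shares of the members' regions these counts are 26.8% and 36.2%. No region was called in both Input libraries alone (1.08% of the genome) or in both PCM1 libraries alone (0.254%). The 3 called in both Myc libraries alone (1.84%) were those of Akap6 and Bbs4 given above, and without Input replicate 1, the deepest library, there were 8 of 130 (6.15%), against 7.11% of the genome. The members' windows held 6.27 and 3.84 peaks per 100 kb for Input, 5.66 and 5.32 for Myc and 4.18 and 4.11 for PCM1. Relative to the genome, this was 1.26 to 1.4 times as many, and the windows are made of genes and their flanks, which the genome as a whole is not.

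The 37 regions called in all 6 libraries give a view beyond promoters, since 22 of them have no start within 1 kb. PCM1 was above Myc at 17 (45.9%), against 32.8% of 48861 such regions in the genome, and 7 of the 17 lie in Akap6 and 4 in Akap9. This excess depended on the ranking and on a single library. With all peaks of each library ranked, an alternative chosen after seeing the data, 5 of the 37 regions (13.5%) had PCM1 above Myc, against 16.4% in the genome, while with ranks by fold enrichment there were 16 (43.2%), against 34.7%, and with ranks by pileup over background 17 (45.9%), against 28.4%. Without PCM1 replicate 1, PCM1 was above Myc at 17 (45.9%), against 43.9%, and above Input at 15 (40.5%), against 39.0%, so both shares were then near those of the genome. Myc was above PCM1 at 10, against 27.1%. This count was 13 with all peaks ranked, against 45.6%, and 4 with ranks by fold enrichment, against 21.5%. PCM1 was above Input at 13 (35.1%), against 24.6%, but at 0 with all peaks ranked, against 4.80%. Input was above PCM1 at 5, against 24.6%. Myc was above Input at 10, against 24.8%, and Input was above Myc at 9, against 30.1%. Regions of 1 gene are not independent of each other. Cardiomyocyte markers, too, were higher in PCM1 than in Myc at 6 of 10 promoters, and lower at 1, against 17.1% and 47.9% of ranked genes. In the other lists, PCM1 was above Myc at 3 smooth muscle and pericyte, 2 endothelial and 0 fibroblast, epicardial or immune markers. Myc was above PCM1 at 2 smooth muscle and pericyte, 5 endothelial, 6 fibroblast, 2 epicardial and 0 immune markers. The part of cell makeup in these counts was not tested.

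Most other genes of the same structures also had an open start, with medians below those of the members in every library for the satellite and the BBSome lists. All 14 further satellite genes had a promoter peak in all 6 libraries, with a median level of 87.6 and 87.8 for Input, 90.1 and 90.4 for Myc and 84.5 and 82.0 for PCM1. They ran from Hook3, a motor adaptor that binds PCM1 (98.8, the median over libraries), to Fgfr1op (37.0). Input was above PCM1 at 8 of the 14 (36.0% of ranked genes) and PCM1 above Input at 1 (17.8%). Myc was above PCM1 at 8 and PCM1 above Myc at 1. All 14 genes of the pericentriolar matrix and of microtubule nucleation had a promoter peak in all 6 libraries, from Tubg1, which encodes gamma-tubulin (98.2), to Tubgcp6 (76.5), and their median was 93.9 and 92.5 for Input, 94.8 and 94.5 for Myc and 93.6 and 91.5 for PCM1. Myc was above Input at 11 of these 14 (40.9% of ranked genes) and above PCM1 at 9. Of the 14 genes of the BBSome and the transition zone, 12 had a promoter peak in all 6 libraries, from Rpgrip1l (99.9) to Bbs1 (6.45), with a median of 90.7 and 90.9 for Input, 90.3 and 92.3 for Myc and 87.6 and 88.0 for PCM1. Myc was above PCM1 at 9 of them. Bbs1 had a level of 0 and 12.9 for Input, 45.6 and 62.1 for Myc and 0 and 0 for PCM1. All 12 genes for nuclear envelope anchors and motors had one in all 6 libraries, from Ndel1 (99.4) to Dctn1 (67.9), with a median of 94.0 and 93.6 for Input, 90.6 and 91.5 for Myc and 93.9 and 94.1 for PCM1. Myc was above PCM1 at 4 of the 12 and PCM1 above Myc at 4. In the envelope list, promoters higher in PCM1 were thus as many as those higher in Myc, and in the other 3 lists Myc led. These shares can be read beside those of the ranked genes, 47.9% for Myc above PCM1 and 17.1% for the reverse.

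Promoter sequences were read for the 9 members (all but Pcm1) that matched by symbol in a RefSeq table of 32851 promoters (300 bases that run from upstream of a start to just past it, GRCm38.p6). For Ninl this start is the inner one at 151009398, not the upstream one behind its promoter level. Letters of 13 motifs were searched on both strands. No motif holds another whole, and a match describes the letters only. GGGCGG (GC box) was found in 7 of the 9 promoters, against 35.7% of all promoters, with Akap6 and Bbs4 lacking it in this window. CCAAT (NF-Y) was found in 5 (Pcnt, Akap6, Akap9, Cep131 and Cep290), against 37.4%. CCGGAAG (ETS) was found in Bbs4 (8.86% of all promoters), ATGGCGG (YY1) and TTTGAA (CHR) in Cdk5rap2 (4.06% and 17.9%), GTTGCC (RFX) in Akap6 (12.5%) and TNAAGTG (NKX2) in Ninl (11.5%). GCATGCGC (NRF1, 2.71%), TTTCCCGC (E2F, 1.07%), AGATAA (for GATA factors, 11.2%), GGAATG (TEAD, 14.7%), TGACTCA (AP-1, 5.20%) and CTAAAAATA (MEF2, 0.518%) were found in none of the 9 windows. Around promoter summits (200 bases, 8 members, 15229 genes), GGGCGG was found in 7 members, against 59.5% of genes, CCAAT in 3 (30.9%), GTTGCC in 2 (9.33%), and GGAATG (7.60%), GCATGCGC (4.08%), CCGGAAG (14.5%) and TNAAGTG (4.29%) in 1 each. The motifs ATGGCGG (6.13%) and TTTGAA (4.61%) were found in 0 there, so that 6 of the 13 counts differed. The kind of window and the set of members changed together, since Akap6 had no promoter peak and so no promoter summit. Akap6 was 1 of the 5 members with CCAAT and the only member with GTTGCC in the RefSeq windows. Akap6 also differed in base composition. Its promoter had 43.7% G and C and 2 CG dinucleotides, while the other 8 had 53.0 to 71.3% and 11 to 29, and the median over all promoters was 52.7% and 7.

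The Akap6, Akap9 and Cep131 promoters are shown for contrast, being the one without a peak, the one whose start region had the lowest level in PCM1 and the one with the highest median level. Their RefSeq windows are chr12:52699133-52699432 on the plus strand, chr5:3927936-3928235 on the plus strand and chr11:120086778-120087077 on the minus strand (GRCm38.p6), each 300 bases, 5′ to 3′, with matches to the searched motifs in capitals. The capitals mark CCAAT and GTTGCC in Akap6, and GGGCGG and CCAAT, or their reverse complements, in Akap9 and Cep131.
Akap6 promoter: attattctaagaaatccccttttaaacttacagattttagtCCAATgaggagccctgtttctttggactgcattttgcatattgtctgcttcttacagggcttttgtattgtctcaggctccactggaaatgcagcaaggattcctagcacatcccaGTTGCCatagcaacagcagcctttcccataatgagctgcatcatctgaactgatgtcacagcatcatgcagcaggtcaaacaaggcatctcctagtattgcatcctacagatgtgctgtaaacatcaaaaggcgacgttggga
Akap9 promoter: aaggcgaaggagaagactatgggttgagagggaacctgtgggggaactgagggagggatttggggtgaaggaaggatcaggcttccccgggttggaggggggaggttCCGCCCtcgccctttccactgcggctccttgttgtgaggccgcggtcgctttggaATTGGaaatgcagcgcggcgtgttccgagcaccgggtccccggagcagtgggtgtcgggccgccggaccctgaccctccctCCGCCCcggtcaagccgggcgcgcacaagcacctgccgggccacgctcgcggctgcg
Cep131 promoter: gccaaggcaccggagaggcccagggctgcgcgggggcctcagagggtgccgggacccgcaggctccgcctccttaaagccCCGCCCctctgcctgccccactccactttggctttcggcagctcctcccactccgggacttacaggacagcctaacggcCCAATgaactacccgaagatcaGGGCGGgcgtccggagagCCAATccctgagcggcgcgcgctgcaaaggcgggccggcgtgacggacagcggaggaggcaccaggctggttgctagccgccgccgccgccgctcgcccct

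The Akap6 regions called in all 6 libraries lacked the motifs most frequent in the promoters. In windows of 300 bases over the 13 Akap6 regions called in all 6 libraries, GGAATG (TEAD) was found in 6, GTTGCC (RFX) in 5, TTTGAA (CHR) in 5, TNAAGTG (NKX2) in 3, CCGGAAG (ETS) in 2, AGATAA (for GATA factors) in 1 and ATGGCGG (YY1) in 1. Over the genome's regions called in all 6 libraries, the shares were 19.4% for GGAATG, 12.1% for GTTGCC, 14.3% for TTTGAA, 13.7% for TNAAGTG, 6.61% for CCGGAAG, 14.2% for AGATAA and 3.32% for ATGGCGG. The motifs GGGCGG and CCAAT were found in 0 of the 13, against 27.1% and 31.8% in the genome. The 13 windows had a median of 47.3% G and C and 4 CG dinucleotides, against 53.3% and 6 over such regions of the genome. The genome's regions include promoters, while all 13 lie in introns away from any GENCODE start. These shares and medians thus compare unlike sets, and those of intronic regions alone were not computed. Windows centred on the summits of 3 intronic regions (GRCm38, plus strand) are shown, being the Akap6 regions with a predicted start and with the highest median level, and the strongest Akap9 region away from any start. The window at chr12:52790514-52790813 holds the predicted RefSeq start at base 166 and has AGATAA, as its reverse complement, in capitals. The window at chr12:52877065-52877364 has GGAATG, on both strands, and GTTGCC in capitals. The window at chr5:4071560-4071859, the Akap9 region that was highest in PCM1, has AGATAA, as its reverse complement, in capitals.
Akap6 predicted start: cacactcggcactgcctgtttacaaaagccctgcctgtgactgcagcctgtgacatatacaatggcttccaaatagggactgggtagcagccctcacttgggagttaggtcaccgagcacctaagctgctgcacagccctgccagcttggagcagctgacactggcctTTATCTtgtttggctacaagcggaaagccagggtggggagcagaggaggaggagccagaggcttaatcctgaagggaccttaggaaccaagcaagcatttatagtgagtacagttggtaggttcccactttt
Akap6 strongest region: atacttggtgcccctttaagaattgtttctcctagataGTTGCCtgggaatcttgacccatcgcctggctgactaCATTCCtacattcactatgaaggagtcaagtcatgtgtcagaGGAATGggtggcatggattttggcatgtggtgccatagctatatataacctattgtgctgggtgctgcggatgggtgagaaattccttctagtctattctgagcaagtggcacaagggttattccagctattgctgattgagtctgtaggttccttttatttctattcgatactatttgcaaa
Akap9 strongest region away from starts: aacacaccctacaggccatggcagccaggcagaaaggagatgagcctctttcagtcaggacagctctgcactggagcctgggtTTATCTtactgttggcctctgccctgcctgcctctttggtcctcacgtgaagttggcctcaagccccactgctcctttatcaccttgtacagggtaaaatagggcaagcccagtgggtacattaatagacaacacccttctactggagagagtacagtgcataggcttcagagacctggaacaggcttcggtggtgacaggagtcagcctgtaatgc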

How the data were processed

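Omni-ATAC-Seq libraries of 3 groups with 2 biological replicates each were analysed from 1 peak list per library. According to the submitters' processing notes and the study's methods, the authors mapped reads to mm10 with Bowtie2 2.3.3.1, marked duplicates with Picard 2.2.1, removed blacklisted regions with bedtools 2.7.1, shifted alignments for the transposase and called peaks in each library separately with MACS2 2.1.0.20160309 at a q-value threshold of 0.05. The deposited fold enrichment is the authors' ratio of summit pileup to local background, with 1 added to each. The added 1 lowers the ratio most at low background, so fold enrichment is not free of depth. The deposited −log10 p-value and −log10 q-value are the authors' own for each summit and grow with depth. Summit pileup and background were solved from fold enrichment and p-value, and between 99.998 and 100% of the solved pileups per library were whole numbers within a tolerance of 0.02.

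Peaks were assigned to GENCODE M21 genes with a flank of 10 kb and to TSSs within 1 kb. Peaks of all libraries that overlap by at least 1 bp were merged into regions. Groups were called apart where both libraries of a group were above both of the other. Pcm1 was compared by exact two-sided permutation over libraries. Computations used Python 3.11.15, numpy 2.4.6, scipy 1.17.1, pandas 2.3.3 and pysam 0.24.0, plots used matplotlib 3.10.9, and the computations were tested on simulated data.

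Named were all members, every region of the Pcm1 window, elsewhere the regions behind the promoter levels or at the start of the gene, regions of a single group and the strongest region in all 6 libraries away from starts, the 3 genes nearest to Pcm1 in level, and the highest and lowest gene of each list. Genes and regions outside this rule are marker genes, Bbs1, genes that share a start with a member, other regions at inner or neighbouring starts, an Akap9 region and 5 of the 51 Akap6 regions (among them the one with a predicted start), chosen after their values were seen. The members and lists were chosen with earlier results of these data known. Alternatives were other rankings (all peaks, fold enrichment, −log10 p-value, summit pileup over background), distances of 200 bp and 3 kb, other sets of TSSs, a q-value threshold of 0.01, other flanks and overlaps, and each library left out in turn. Read coverage was not used here.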

Additional observations from a re-analysis of the deposited data

How the results depend on the processing

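Pcm1 kept the sign of both differences with Myc under every alternative run, and PCM1 minus Input turned to 4.34 points when ranked by fold enrichment. With the replicate number as a replicate block, where the smallest exact p is 0.5, PCM1 minus Input was −0.647 (exact p = 1.0), Myc minus Input 1.90 (exact p = 0.5) and PCM1 minus Myc −2.55 (exact p = 0.5). Replicates of the same number did not deviate together (r = 0.00189 for Input and Myc, −0.0205 for Input and PCM1 and 0.0248 for Myc and PCM1, over 13119 genes), so the numbers were not taken as pairs. The count of 9 members with a promoter peak in all 6 libraries was the same under every alternative other than RefSeq starts, which gave 10.

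Members with promoter levels apart between groups changed with the ranking, and so did the share of ranked genes, given in brackets. The cause was not tested. With all peaks ranked, PCM1 was above Input at 0 (3.73%), Input above Myc at 1 (9.24%) and PCM1 above Myc at 0 (8.47%). Ranked by fold enrichment, the counts were 2 for PCM1 above Input (21.2%), 1 for Input above PCM1 (23.0%), 1 for Input above Myc (20.5%) and 2 for Myc above PCM1 (32.1%). Ranked by pileup over background, PCM1 was above Input at 0 (18.0%) and Input above Myc at 1 (14.1%). A single library is more easily apart from a pair, and with a library left out PCM1 was above Input at 2 to 3 (23.8 to 30.4%), Input above PCM1 at 3 to 6 (46 to 49.4%), Input above Myc at 1 to 3 (26.7 to 28.2%) and PCM1 above Myc at 2 to 3 (23.4 to 26.1%).

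The alternatives for levels of regions were chosen after seeing the data, and the share of the genome's regions is in brackets. With all peaks ranked, PCM1 was above Input at 0 of 37 (4.80%), Input above PCM1 at 9 (27.9%) and PCM1 above Myc at 5 (16.4%). Myc was then above PCM1 at 13 (45.6%). Ranked by fold enrichment, Input was above PCM1 at 3 (19.4%) and Myc above PCM1 at 4 (21.5%). Leaving out a library gave 15 to 21 for PCM1 above Input (34.7 to 39.2%), 6 to 13 for Input above PCM1 (35.1 to 39.0%), 12 to 17 for Myc above Input (33.5 to 36.8%), 13 to 16 for Input above Myc (40.6 to 42.1%), 17 to 22 for PCM1 above Myc (42.2 to 43.9%) and 10 to 15 for Myc above PCM1 (35.9 to 37.0%). The lowest counts for PCM1 above Input (15, 40.5% of 37, against 39.0%) and PCM1 above Myc (17, 45.9%, against 43.9%) came without PCM1 replicate 1. With about equal numbers of peaks, each library kept between 74373 (PCM1 replicate 2) and 75348 (Myc replicate 2). There 32 of 94 regions (34.0%) were called in a single library, against 25.2%, 1 in Input alone (1.02%) and 1 in Myc alone (1.99%). Requiring a peak to cover 50% of its region left 1 in Input alone (1.23%). Without a library, 0 to 1 were in Input alone (1.39 to 1.8%) and 3 to 8 in Myc alone (2.02 to 7.11%). A count for 1 group cannot be given when a library of that group is left out. A summit always lies in its merged region, so that criterion was not run.

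Levels are ranks within a library and do not give the amount of open chromatin. With 2 libraries per group no exact test reaches 0.05, outliers within a group of 2 were not tested, and depth limits which weak sites were called.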
